A study of Betula luminifera with 2 samples.

Results

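The sequences described here are the miR159 and miR319 families of the birch Betula luminifera. They were taken as every listed entry matched to miRBase, the public miRNA registry, named miR159 or miR319 (or MIR319) with any species prefix and suffix, plus every degradome alignment listed for a miRNA of either name. This gave 8 of the 569 entries of the small RNA table, 4 in each family, and 7 of the 108 alignments of the degradome table, 4 for miR159 and 3 for miR319, on 6 transcripts. The RNA came from root, stem and leaf of tissue-cultured seedlings of the single clone G49#, aged 2 months, pooled before library construction, in equal amounts for the small RNA library; the labels do not give the proportions for the degradome library. Each assay had 1 library, and the degradome assay reads the 5′ ends of broken polyadenylated transcripts. There were thus no replicates, no tissue was compared with another and no test between samples was possible. The tissue labels could not be checked against marker genes, because the tables name no genes other than miRNAs.

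Plant miRNAs guide an ARGONAUTE protein to transcripts that they match closely, and the protein cuts the transcript opposite the middle of the miRNA. The miR159 and miR319 families are thought to share an ancestor and still differ at few bases, but in Arabidopsis they act on different transcripts. In that plant miR159 represses GAMYB-like MYB transcription factors, which act in anthers, seeds and the transition to flowering, and miR319 represses TCP transcription factors that limit cell division in growing leaves. Their precursors are unusually long hairpins, and in Arabidopsis they are cut from the loop towards the base rather than from the base inwards.

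The mature sequences are shown because the difference between the families lies in a few of their letters. Capitals mark the seed, bases 2 to 8 from the 5′ end, and the letters are those of the deposited table, with T for U. The 3′-arm sequences, the arm from which the miRNA itself is known to come in both families, were these.
zma-miR159a-3p: tTTGGATTgaagggagctctg
mes-miR159c_L-1: tTGGAGTGaagggagctctg
sbi-miR159b_L-1R-1_1ss4GT: tTTGATTGaagggagctcc
vvi-miR319b_R-1: tTGGACTGaagggagctccc
osa-miR319a-3p.2-3p_R+1_1ss15GC: tTGGACTGaagggtcctccct

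The 5′-arm sequences came from the side of the hairpin that pairs with the miRNA, or in 1 case from nearer the loop.
zma-miR159c-5p_L-1: aGCTCCCTtcgatccaatcc
mtr-miR319d-5p_1ss19CT: aGAGCTCTcttcagtccattc
vvi-MIR319f-p5: aGCTGCCGactcattcattca

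In these names the first letters give the species of the matching miRBase entry, L and R give bases missing or added at the left and right end against that entry, and ss gives a substitution. Only zma-miR159a-3p was identical to its miRBase entry. A further 6 differed from theirs, and vvi-MIR319f-p5 lay on an arm with no miRBase sequence. The table lists 1 sequence for each cluster of reads, so the full range of end variants was not analysed here.

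The 2 main sequences were close to identical but started 1 base apart. Aligned without gaps, 17 of 20 bases of zma-miR159a-3p and vvi-miR319b_R-1 were the same, and the differences were T7C, T20C and G21C, where the miR159 base comes first, then its position from the 5′ end, then the miR319 base. Because zma-miR159a-3p has 1 more base at its 5′ end, base 7 of miR159 stands at base 6 of miR319, and the seeds, TTGGATT in miR159 and TGGACTG in miR319, are not the same. The rarer mes-miR159c_L-1 differed from zma-miR159a-3p at 1 of 20 bases, G6T counted on mes-miR159c_L-1, and began at the same point as miR319. The seed TGGACTG was shared by vvi-miR319b_R-1 and osa-miR319a-3p.2-3p_R+1_1ss15GC, and no seed was shared between the families. Of the 497 sequences outside the families, none shared a run of more than 8 bases with zma-miR159a-3p or of more than 10 with vvi-miR319b_R-1, while the 2 main sequences shared a run of 12.

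The miR159 family was far less abundant than the miR319 family. It had 123.5 reads (exact Poisson interval at 95%, 103 to 147), against 4754.5 reads for miR319 (4620 to 4892). The miR159 family thus held 2.53% of the reads of both families (exact binomial interval at 95%, 2.11 to 3.01%), a ratio of 0.026 to miR319. Among all 607592 reads of the small RNA table, miR159 made up 0.0203% (0.0169 to 0.0242%) and miR319 made up 0.783% (0.761 to 0.805%). By reads, miR159 stood at rank 26 of 84 families, between miR858 with 124 reads and miR1425 with 97, and miR319 at rank 7, between miR482 with 7027 and miR167 with 2839.5. The reads of miR858 lie within the interval of miR159, so the order of miR159 and miR858 was not resolved. The reads of miR1425 lie below that interval, but no interval was computed for miR1425 itself, so that order was not resolved either. The reads of both neighbours of miR319 lie outside the interval of miR319. The intervals cover counting error only, since amplified reads that carry no molecular identifier need not come from separate molecules.

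In both families a single 3′-arm sequence held nearly all reads. zma-miR159a-3p had 115.5 reads, 93.5% of its family (87.6 to 97.2%), and vvi-miR319b_R-1 had 4734 reads, 99.6% of its family. The remaining miR159 sequences had 5 reads (mes-miR159c_L-1), 2 reads (zma-miR159c-5p_L-1) and 1 read (sbi-miR159b_L-1R-1_1ss4GT). The remaining miR319 sequences had 18.5 reads (mtr-miR319d-5p_1ss19CT) and 1 read each (vvi-MIR319f-p5 and osa-miR319a-3p.2-3p_R+1_1ss15GC). Of the 8 sequences, 5 therefore had fewer than 10 reads, and their order among themselves cannot be read at this depth. The values 115.5 and 18.5 are not whole. How such fractions arose is not given in the file, and each of these sequences stood in 1 entry only.

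**Figure D1:**
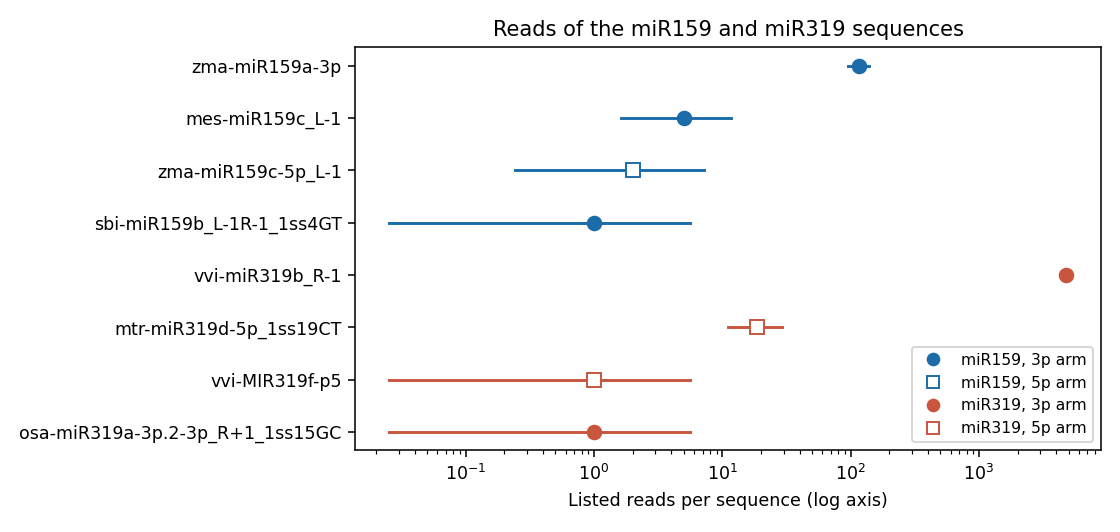
Listed reads of each miR159 and miR319 sequence on a log axis, miR159 above miR319. Points are reads, lines are exact Poisson intervals at 95%, filled circles are 3′-arm and open squares 5′-arm sequences; zma-miR159a-3p (115.5 reads) and vvi-miR319b_R-1 (4734 reads) stand far to the right of the others in their families.

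Both families were read from the 3′ arm. In miR159 this arm held 121.5 reads, 98.4% of the family (94.3 to 99.8%), and in miR319 it held 4735 reads, 99.6% (99.4 to 99.7%). The 5′ arm had 2 reads in miR159 and 19.5 in miR319. As shares of their families these were 1.62% (0.197 to 5.73%) for miR159 and 0.41% (0.249 to 0.636%) for miR319, and the interval of miR159 contains that of miR319. The families differed in the length of the main form, since 93.5% of miR159 reads were 21 nt long and 99.6% of miR319 reads were 20 nt long. Thymine, standing for uracil, was the first base of 98.4% of miR159 reads and 99.6% of miR319 reads, as it was for all 5 sequences of the 3′ arm. Adenine opened all 3 sequences of the 5′ arm.

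Of the 8 sequences, 2 were placed on a birch genome contig, both on the same miR319 hairpin. No miR159 sequence was placed. The hairpin lies at contig_185198:1658-1844 on the plus strand. It is shown 5′ to 3′ with the sequenced stretches in capitals because sequences written in it hold 99.6% of the miR319 reads. Whether those reads came from this hairpin was not tested. The genome build of the contig is not given, so whether it comes from Betula luminifera itself was not established. Whether the contig is annotated at these positions was not analysed here.
vvi-miR319b_R-1 hairpin: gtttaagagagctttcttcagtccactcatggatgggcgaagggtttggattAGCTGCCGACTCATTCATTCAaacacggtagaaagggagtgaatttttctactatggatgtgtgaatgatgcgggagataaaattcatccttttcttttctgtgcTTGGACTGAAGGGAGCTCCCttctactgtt

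The miRNA, vvi-miR319b_R-1, occupies positions 158 to 177 of the 187 nt (contig positions 1815 to 1834), near the open end of the hairpin. In the fold listed by the authors, 16 of its 20 bases were paired, with the stretch from position 7 to 25. The base that follows it on the contig is T, the base with which the 21-nt miRBase form ends, so the 21-nt form is also written in the hairpin. The second capital stretch, vvi-MIR319f-p5, occupies positions 53 to 73 (contig positions 1710 to 1730), with 14 of 21 bases paired. It lies inside the hairpin, 84 nt before the miRNA and separated from the paired stretch of the miRNA by 18 base pairs on the way to a terminal loop of 9 nt. Only 1 read supported it, against 4734 for the miRNA at the open end, and the Poisson interval of that 1 read was 0.0253 to 5.57 reads.

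The most frequent 5′-arm sequence did not match this hairpin. mtr-miR319d-5p_1ss19CT, with 18.5 reads, was closest to positions 8 to 28 of the hairpin, opposite the miRNA, but differed there at 2 of 21 bases, T7C and C19T, with the hairpin base first and positions counted on the miRNA. It differed at 2 bases from the precursor listed for it as well. The 5′-arm partner written in the birch hairpin itself was not among the listed sequences.

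The other 6 sequences carried precursors of other species, 5 in all, so their folding values describe those species. The index of folding energy per length and GC content was 0.8 to 0.9 for the 3 miR159 precursors and 0.9 and 1.1 for the 2 miR319 precursors of other species, against 1 for the birch miR319 hairpin. The miR159 precursors were 215 to 253 nt long with 49.3 to 52.9% GC. The miR319 precursors were 187 to 211 nt long with 42.7 to 49.7% GC. The birch precursor, at 187 nt and 43.3% GC, was the shortest of the 6 by precursor length, but not by the length of the hairpin within it, which was 183 nt in birch and 172 nt in the precursor of zma-miR159c-5p_L-1. Of these other 6 sequences, zma-miR159a-3p, mes-miR159c_L-1 and zma-miR159c-5p_L-1 were found letter for letter in the listed precursor. The remaining 3 differed from theirs by 1 or 2 bases.

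The degradome table listed 4 target transcripts for miR159 and 2 for miR319. The sites are shown as RNA, 5′ to 3′, with the base at the listed cut position in capitals, since reads of the downstream fragment begin there. The 3′-arm sites were these.
Unigene184, positions 447 to 467, for zma-miR159a-3p: uggagcucccuUcacuccaau
Unigene3338, positions 560 to 580, for zma-miR159a-3p: uggagcccccuUcaaaccaaa
Unigene25811, positions 194 to 214, for zma-miR159a-3p: uggagcucccuUcacuccaau
CL6050.Contig2, positions 2219 to 2238, for vvi-miR319b_R-1: agggggacccUucaguccaa

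Of the 5′-arm sequences, zma-miR159c-5p_L-1 and mtr-miR319d-5p_1ss19CT had 1 site each, and none was listed for vvi-MIR319f-p5.
CL1844.Contig3, positions 659 to 677, for zma-miR159c-5p_L-1: ggauugaaucGagggagcu
Unigene1, positions 173 to 193, for mtr-miR319d-5p_1ss19CT: gagcagguugaAgagagcucu

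The sites on Unigene184 and Unigene25811 were identical over 21 bases, and that on Unigene3338 matched them at 17 of 21. The miR319 site on CL6050.Contig2 matched the Unigene184 site at 15 of 20 bases when moved by 1. Because the transcripts have no names other than those of the assembly, the genes behind them were not analysed here.

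The 3 sites of zma-miR159a-3p were the dominant read starts of their transcripts. On Unigene184, 81 of 124 reads began at position 458 (65.3%, exact binomial interval 56.3 to 73.6%). The other 43 reads were spread over 8 positions with 1 to 10 reads each, all downstream of the cut, and the highest of them was 764 nt away. On Unigene3338, 59 of 99 reads began at position 571 (59.6%, 49.3 to 69.3%), and the next highest position had 10 reads. On Unigene25811, a transcript of 456 nt, all 18 reads began at position 205, a share of 100% with an interval of 81.5 to 100%. Every read at these 3 cuts matched 1 place alone, so the identical sites of Unigene184 and Unigene25811 were told apart by the sequence beyond the site. Of the 69 listed positions in the whole table, the shares on Unigene184 and Unigene3338 stood at ranks 9 and 13, and that on Unigene25811 was tied for the highest.

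The miR319 site was also the highest position of its transcript, on a busier background. On CL6050.Contig2, 84 of 517 reads began at position 2229 (16.2%, 13.2 to 19.7%), and all 84 matched that place alone. The other 433 reads lay on 74 positions, with at most 19 reads at any of them, and 400 of these reads were upstream of the cut. The cut lay at 92.8% of the transcript length, while the 3 cuts of zma-miR159a-3p lay at 34.3, 36.1 and 45%. In reads at the cut, the miR159 sites (81, 59 and 18) spanned a range that ended just below the miR319 site (84), although the miR319 family had the more small RNA reads. The depth of each transcript in the degradome library is unknown beyond these reads, so reads at a cut do not compare the amounts cut.

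The sites of the 5′-arm sequences were not the highest positions of their transcripts. On CL1844.Contig3, 27 of 1610 reads began at the listed position 669 (1.68%, 1.11 to 2.43%). There, 5 of the 172 occupied positions had more reads, the highest being position 666, 3 nt upstream, with 47 reads. The median of the other positions was 8 reads, so the listed position was above most of them. On Unigene1, 7 of 11158 reads began at position 184 (0.0627%, 0.0252 to 0.129%), and 359 of its 673 occupied positions had more. Within 25 nt of that position, 22 of 36 occupied positions had more reads, up to 71. Most reads of Unigene1 were not unique to it, since 2218 of the 11158 matched 1 place alone, and its highest position, with 189 reads, had none that did.

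**Figure D2:**
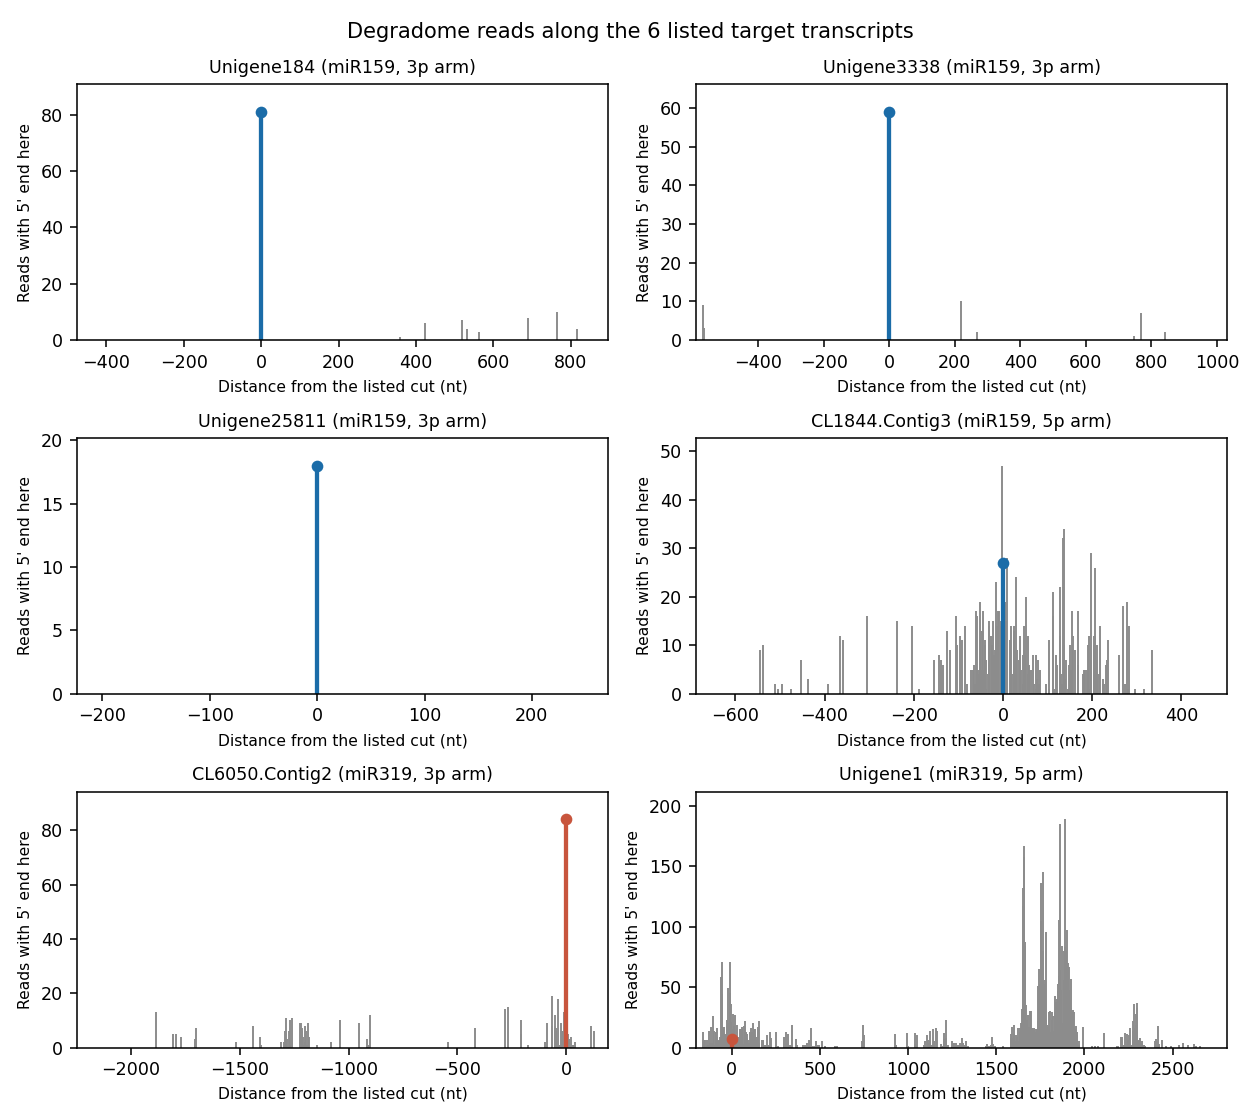
Degradome reads by distance from the listed cut in nt, on linear axes, for the 6 target transcripts. Coloured lines with a dot mark the listed cut (blue for miR159, red for miR319) and grey lines all other positions; the cut is the tallest line on Unigene184 (81 reads), Unigene3338 (59), Unigene25811 (18) and CL6050.Contig2 (84), but not on CL1844.Contig3 (27, against 47 nearby) or Unigene1 (7, against up to 189).

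Category 0 in the authors' deposited table was given to 3 of the 6 positions, those on Unigene184, Unigene3338 and CL6050.Contig2, against 33.3% of all 69. Category 1 in the authors' deposited table was given to Unigene25811, which made 4 of 6 in category 0 or 1, against 37.7% of all positions. The 5′-arm sites on CL1844.Contig3 and Unigene1 had category 2 in the authors' deposited table. The listed position had the most reads of its transcript for 4 of the 6, against 39.1% of all positions. With 6 positions, neither count sets these families apart from the rest. In the authors' deposited table the p-values were 0.0161 for Unigene184 and for Unigene3338, 0.00749 for Unigene25811, 0.0037 for vvi-miR319b_R-1 on CL6050.Contig2, 0.11 for CL1844.Contig3 and 0.186 for Unigene1.

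At the 3′-arm sites, the reads lay in the register of the main sequence listed there, 1 nt from that of the other. The miR159 and miR319 registers named here are those of the 2 main sequences, not of whole families. The rarer mes-miR159c_L-1 and sbi-miR159b_L-1R-1_1ss4GT begin at the same point as vvi-miR319b_R-1. In all 84 ungapped alignments of the whole table, the listed position lay opposite base 10 of the miRNA, so that part is how the table was made and not a result. The starting points of the 2 main sequences, however, put their base 10 opposite different bases of the same site. On Unigene184 the 81 reads began at position 458, opposite base 10 of miR159, and none at position 457, opposite base 10 of miR319. On Unigene25811 the numbers were 18 at position 205 and none at position 204. On Unigene3338 there were 59 reads at position 571 and 6 at position 570, so 90.8% of the reads at these positions (81.0 to 96.5%) were in the miR159 register. On CL6050.Contig2 no read began at position 2230, opposite base 10 of miR159, and 84 began at position 2229, opposite base 10 of miR319. A count of 0 allows up to 3 reads, or 2.42% of the reads of Unigene184, 16.7% of those of Unigene25811 and 0.58% of those of CL6050.Contig2. These are shares of all reads of the transcript. As shares of the reads at the 2 register positions, the exact intervals of the empty register reached 4.45%, 18.5% and 4.3%, in that order. A site enters the table for a miRNA only with reads opposite its base 10, which is why these counts are described and not tested.

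**Figure D3:**
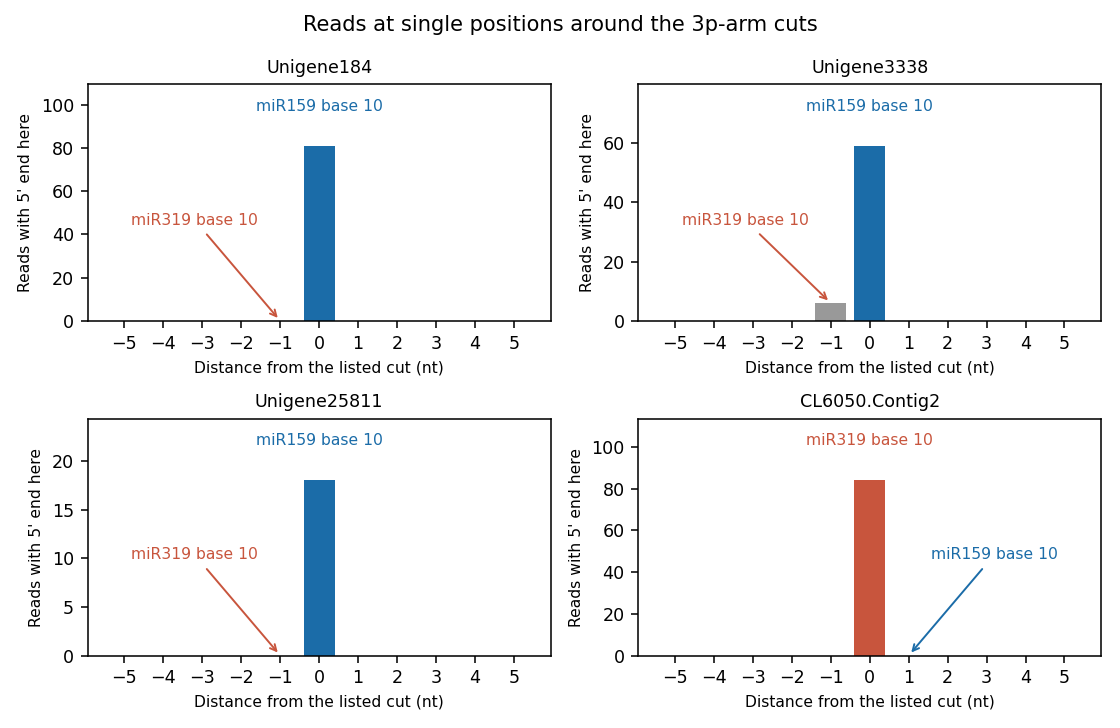
Degradome reads at single positions up to 5 nt on either side of the listed cut, with bars from 0, for the 4 sites of 3′-arm sequences. Labels mark the position opposite base 10 of the main miR159 and miR319 sequences; the miR159 sites hold 81, 59 and 18 reads in the miR159 register and 0, 6 and 0 in the miR319 register, and the miR319 site holds 0 and 84.

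How closely the 2 main sequences paired with the miR159 sites, set against each other, depended on the site, the bases compared and the weight given to G:U pairs. Pairing was scored without gaps as 1 for a mismatch and 0.5 for a G:U pair, so a low penalty is a close match. zma-miR159a-3p had a penalty of 3 on each of its 3 sites. On Unigene184 and Unigene25811 this came from mismatches at bases 1 and 7 and G:U pairs at bases 20 and 21. vvi-miR319b_R-1 had a penalty of 2 on the same 2 sites, with mismatches at bases 6 and 20. Over the 20 positions that both sequences cover, which leave out base 1 of zma-miR159a-3p, the penalties there were equal at 2. On Unigene3338 they were 3 for zma-miR159a-3p and 4 for vvi-miR319b_R-1 over those positions, and on the miR319 site of CL6050.Contig2 they were 4.5 for zma-miR159a-3p and 3.5 for vvi-miR319b_R-1. With G:U pairs counted as 1, over the full length of each sequence, the penalties on Unigene3338 were 4 for both. Those on Unigene184 and Unigene25811 were 4 for zma-miR159a-3p and 2 for vvi-miR319b_R-1. Over the full length, vvi-miR319b_R-1 thus had the lower penalty on these 2 sites at either weight. On CL6050.Contig2 they were then 6 for zma-miR159a-3p and 4 for vvi-miR319b_R-1, in the same order as before. Base 1 of zma-miR159a-3p fell outside the listed site there and was not scored. On that site vvi-miR319b_R-1 had mismatches at bases 14, 15 and 20.

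The closest match to the Unigene184 and Unigene25811 sites was a rare sequence for which the table listed no target. mes-miR159c_L-1, with 5 reads, paired with these sites without a mismatch, at a penalty of 1 from G:U pairs at bases 19 and 20. Its single difference from zma-miR159a-3p falls at the base 7 mismatch of zma-miR159a-3p. In the register of mes-miR159c_L-1 as listed, the reads began opposite base 9, and its base 10 lay opposite the positions without reads. On Unigene3338 its penalty was 4, above the 3 of zma-miR159a-3p. A second rare sequence, osa-miR319a-3p.2-3p_R+1_1ss15GC with 1 read, paired more closely with CL6050.Contig2 than the main miR319 sequence did, at a penalty of 2.5 against 3.5, since it differs from it at bases 14 and 15 (T14A and C15G, the base of the rare sequence first). Both were listed at the same cut there. Which of these sequences guided the cuts cannot be told from the reads.

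Penalties on the sites listed for other families are given for scale only. A close site with reads opposite base 10 of a miR159 or miR319 sequence would itself be listed for that family, so the difference is largely set by how the table was made. Of the 46 ungapped sites that could be scored, 4 had a penalty of at most 5 against zma-miR159a-3p (8.7%), and the same 4 against vvi-miR319b_R-1 (8.7%), all of them the 3′-arm sites of the 2 families. Among the 41 sites of other families the lowest penalty was 8 against zma-miR159a-3p and 6.5 against vvi-miR319b_R-1. The 5′-arm site on Unigene1 scored 11.5 against each main sequence.

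**Figure D4:**
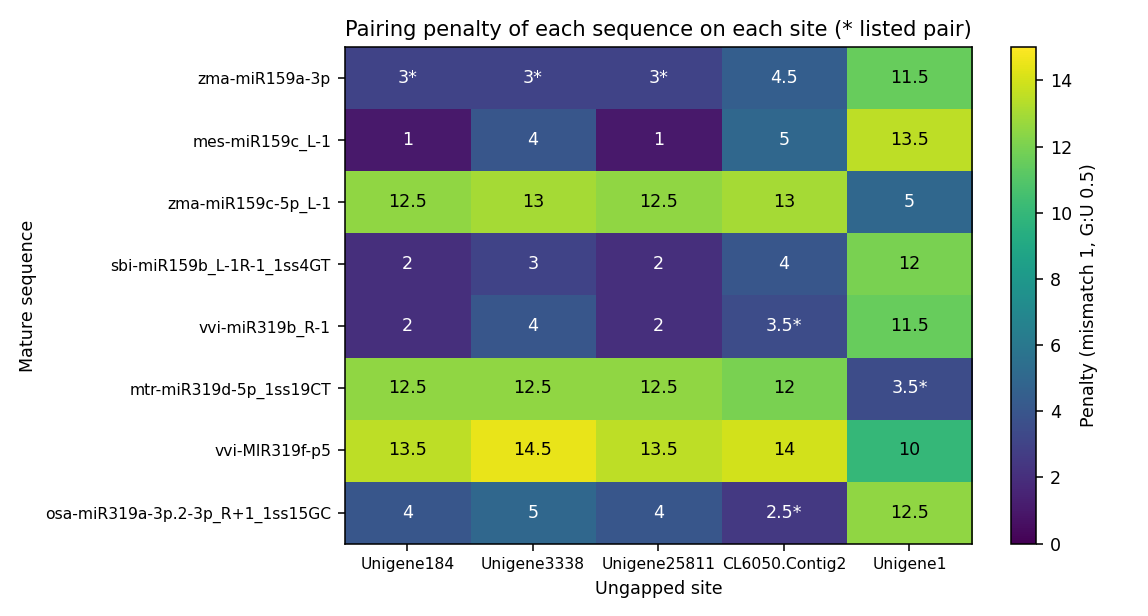
Pairing penalty (1 for a mismatch, 0.5 for a G:U pair, without gaps) of the 8 sequences in rows, miR159 above miR319, on the 5 ungapped sites in columns, with a star for pairs listed in the authors' deposited table. The 3′-arm sequences of both families score between 1 and 5 on the first 4 sites, with the lowest value, 1, for mes-miR159c_L-1.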

How the data were processed

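Read numbers of the small RNA table are raw and not normalized, per the file headers. Some deposited values are not whole, so they were treated as estimated counts and summed without rounding. Entries were matched by the authors to miRBase, per the file headers, and 1 sequence is listed per read cluster. Folding indices (a score), energies and GC content were used as deposited. The degradome table's read counts, categories, p-values and alignment scores are as deposited by the authors; its columns carry no header and were read from their values. Neither aligner nor genome build is given in the sources used here. The assembly suffix _All was dropped from transcript names. Members and lists were chosen with earlier results of these data known. Named were every sequence with at least 10 reads or a listed target and every listed target transcript; rarer sequences were added after their values were seen.

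For ranks, miR157 was counted with miR156, miR165 with miR166, miR170 with miR171 and miR2118 with miR482. Intervals at 95% are exact (Clopper-Pearson for shares, Poisson for reads), computed with the beta and chi-square distributions so that they also take values that are not whole. Pairing was scored over shifts of up to 2 nt with at least 19 bases scored, and the gapped site on CL1844.Contig3 was left out. With penalties doubled at bases 2 to 13, the scores in the authors' deposited table were recomputed exactly for all 84 ungapped alignments. The scoring was tested on simulated sites with planted mismatches, and the binomial interval on simulated whole counts. G:U pairs, shifts, Poisson intervals and values that are not whole were not part of these simulations. Scripts ran in Python 3.11.15 with SciPy 1.17.1, pandas 2.3.3, NumPy 2.4.6 and matplotlib 3.10.9, and hairpins were refolded with RNAfold 2.7.2.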

Additional observations from a re-analysis of the deposited data

How the results depend on the processing

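Of 80 alternative values, 39 were classed as near the main value and 41 as moved. Penalties and target counts have no counting interval, so for them the class does not refer to an error. Counted from whole-number entries only, miR159 had 8 reads, because its main sequence has 115.5. Without the most-read sequence of the table, the shares of listed reads were 0.131% for miR159 and 5.05% for miR319. Without its main sequence, the largest remaining one held 62.5% of miR159 and 90.2% of miR319. Counted by distinct sequences, 50% of miR159 and 25% of miR319 sequences were 20 nt long, 25% of miR159 and 75% of miR319 sequences were 21 nt long, and 75% of miR159 and 50% of miR319 sequences began with T. At category 0 only in the authors' deposited table, 2 targets of miR159 and 1 of miR319 remained. At p at most 0.05 there, 3 targets of miR159 and 1 of miR319 remained. With reads that match 1 place alone, the share at the cut was 2.62% on CL1844.Contig3 and 0.316% on Unigene1, and with reads divided by their matches 0.135% on Unigene1.

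With G:U pairs counted as 1, penalties of zma-miR159a-3p were 4 on each of its 3 sites, 6 on CL6050.Contig2 and 13 on Unigene1. Of its 21 bases, 20 were scored on CL6050.Contig2 and 19 on Unigene1. Those of vvi-miR319b_R-1 were 2 on Unigene184 and Unigene25811, 4 on Unigene3338 and CL6050.Contig2 and 13 on Unigene1, so the lower penalty of zma-miR159a-3p on Unigene3338 was lost. Those of mes-miR159c_L-1 were 2 on Unigene184 and Unigene25811, 5 on Unigene3338, 6 on CL6050.Contig2 and 15 on Unigene1. With penalties doubled at bases 2 to 13, chosen after seeing the data, zma-miR159a-3p had 4 on each of its 3 sites, 5 on CL6050.Contig2 and 20 on Unigene1. vvi-miR319b_R-1 had 3 on Unigene184 and Unigene25811, 6 on Unigene3338 and 20 on Unigene1, and mes-miR159c_L-1 had 6 on Unigene3338 and on CL6050.Contig2 and 23 on Unigene1. No paired analysis was possible because each library type has 1 sample. The penalties under which G:U pairs count as 1 for mes-miR159c_L-1 were chosen after seeing the data too. Depth limits the 5 sequences under 10 reads and Unigene25811, with 18 reads.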

Other observations

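The scale on which the authors' deposited table was cut off bears on the crossing of the families. Its highest score was 4. On that scale, with penalties doubled at bases 2 to 13, vvi-miR319b_R-1 scored 3 on the Unigene184 and Unigene25811 sites and mes-miR159c_L-1 scored 1. At those sites sbi-miR159b_L-1R-1_1ss4GT, with 1 read, scored 4, and all of these scores were within that limit. None of these sequences was listed there, and all lacked reads opposite their base 10. On CL6050.Contig2, zma-miR159a-3p scored 5 with its base 1 left unscored. On Unigene3338 vvi-miR319b_R-1 scored 6, and both values were above the limit.

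Position 666 of CL1844.Contig3, 3 nt from the listed miR159 5′-arm position, was marked category 0 in the authors' deposited table. Its 47 reads all matched 1 place alone. It lies within the listed site, positions 659 to 677, but no cut listed for miR159 or miR319 falls on it.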
